A study of Mus musculus with 12 samples.

Results

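The Cyp4a genes encode the Cyp4a family of cytochrome P450 fatty acid hydroxylases. They were taken as every row whose gene symbol starts with Cyp4a followed by a digit, which gave 8 of the 23420 gene symbols in the count tables. Of these, 6 held counts and are described here, namely Cyp4a10, Cyp4a12a, Cyp4a12b, Cyp4a14, Cyp4a31 and Cyp4a32. The remaining 2, Cyp4a29-ps and Cyp4a30b-ps, had 0 counts in all 12 mice. The counts come from QuantSeq 3′ mRNA libraries of liver from wild type mice and from mice that lack Siah2, a ubiquitin ligase, and ask how the knockout changes liver transcripts in each sex. The groups were wild type females (WTF), Siah2 KO females (KOF), wild type males (WTM) and Siah2 KO males (KOM), with 3 mice in each, all C57BL/6 and about 20 weeks old, taken at zeitgeber time (ZT) 10 of the light-dark cycle, on normal chow. The knockout is not limited to the liver, and wild type and Siah2 KO mice were bred as related homozygous lines after an intercross of heterozygotes, so genotype and line cannot be told apart. Siah2 itself had 11.5 to 17.0 CPM (counts scaled to a common library total) in WTF, 9.63 to 12.5 in KOF, 16.8 to 27.1 in WTM and 9.42 to 17.4 in KOM. It passed the test in no comparison, and the sources do not say whether the counted 3′ end lies in the deleted part, so these counts do not check the genotype.

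Cyp4a enzymes sit in the endoplasmic reticulum and put a hydroxyl group on the last carbon of fatty acids, the first step of omega oxidation, and some of them also turn arachidonic acid into 20-HETE, a lipid that acts on blood vessels and kidney. Cyp4a10 and Cyp4a14 are textbook target genes of PPARα, the nuclear receptor that senses fatty acids in hepatocytes, and are induced by fasting and by fibrate drugs. Cyp4a12a and Cyp4a12b are known as male-biased genes in mouse liver and kidney, under the control of growth hormone and androgen. Cyp4a31 and Cyp4a32 are close relatives of Cyp4a10 and less studied.

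The 6 genes lie in one cluster on chromosome 4 within 323 kb (GRCm38.p6, which is mm10). In order they are Cyp4a12a at chr4:115299046-115332815, Cyp4a12b at chr4:115411624-115439034, Cyp4a14 at chr4:115486200-115496158, Cyp4a10 at chr4:115518287-115533649, Cyp4a31 at chr4:115563627-115579015 and Cyp4a32 at chr4:115600927-115622507. Cyp4a14 alone among the 6 is annotated on the minus strand, and a long noncoding RNA gene, Gm52676, overlaps it and has no row of its own in the tables. In RefSeq the span holds 14 genes, of which 8 carry a Cyp4a symbol.

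The coding sequences fall into groups that the counting had to tell apart. They were compared in the GENCODE M1 transcripts (NCBIM37), over 1524 to 1530 bases. Cyp4a12a and Cyp4a12b shared 98.5% of their bases and differed at 23 positions. Cyp4a10 shared 96.6% with Cyp4a31 and 97.2% with Cyp4a32, while Cyp4a14 shared 75.2% with Cyp4a10 and 75.6% with Cyp4a12a. The 60 coding bases around the cysteine codon that binds haem, the signature of a P450, show this grouping. They are bases 1330 to 1389 of the coding sequence in Cyp4a10, Cyp4a31 and Cyp4a32, 1324 to 1383 in Cyp4a14 and 1327 to 1386 in Cyp4a12a and Cyp4a12b. Capitals mark the 10 positions at which the 6 genes do not all carry the same base.
Cyp4a10, Cyp4a31 and Cyp4a32: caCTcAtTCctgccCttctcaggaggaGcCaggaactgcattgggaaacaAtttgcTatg
Cyp4a14: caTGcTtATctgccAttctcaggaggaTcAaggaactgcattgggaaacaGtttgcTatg
Cyp4a12a and Cyp4a12b: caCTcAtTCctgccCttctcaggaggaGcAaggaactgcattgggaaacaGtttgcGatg

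The relatives of Cyp4a10 part elsewhere. The 60-base window with the most differences among Cyp4a10, Cyp4a31 and Cyp4a32, bases 200 to 259 of the coding sequence, is shown with its 9 variable positions in capitals. For Cyp4a12a against Cyp4a12b the most different window, bases 624 to 683, held 4.
Cyp4a10: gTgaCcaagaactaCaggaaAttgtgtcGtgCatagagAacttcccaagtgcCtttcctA
Cyp4a31: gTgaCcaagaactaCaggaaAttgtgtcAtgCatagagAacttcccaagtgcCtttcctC
Cyp4a32: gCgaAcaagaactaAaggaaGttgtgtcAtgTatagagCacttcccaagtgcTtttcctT
Cyp4a12a: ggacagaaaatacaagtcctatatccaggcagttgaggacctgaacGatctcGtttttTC
Cyp4a12b: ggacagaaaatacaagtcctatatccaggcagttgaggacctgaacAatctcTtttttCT

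QuantSeq reads start near the poly(A) tail, so the 3′ ends matter more than the coding sequence. In the last 400 bases of the annotated transcripts, none of the 75-base windows of Cyp4a10, Cyp4a14 or Cyp4a31 occurred elsewhere in the Cyp4a cluster. Of those of Cyp4a12a and of Cyp4a12b, 42.6% did. The split between Cyp4a12a and Cyp4a12b is therefore uncertain, and values for their sum are also given. If reads that match both genes were dropped, their sum and their share of the Cyp4a counts are too low as well. The annotated Cyp4a32 transcript ends with its coding sequence, so its 3′ end was not compared, and its level is also uncertain.

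Levels below are CPM, scaled by TMM over all 12 mice. Since QuantSeq counts 1 read site near the 3′ end of each transcript, a CPM is not larger for a longer gene, and levels of different genes are set side by side on that scale. Cyp4a14 had the highest level of the 6 in all 12 mice. Together the Cyp4a genes took 0.0915% to 1.10% of all counts. Cyp4a14 ranked between 5th of all genes, in WTF 1090, and 386th, in WTM 1087. Hepatocyte markers (8 of 8 above 0 in all mice, 29841 to 50664 CPM summed) match the tissue label, and kidney tubule markers, another place where Cyp4a genes are used, summed to at most 2.41 CPM.

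**Figure D1:**
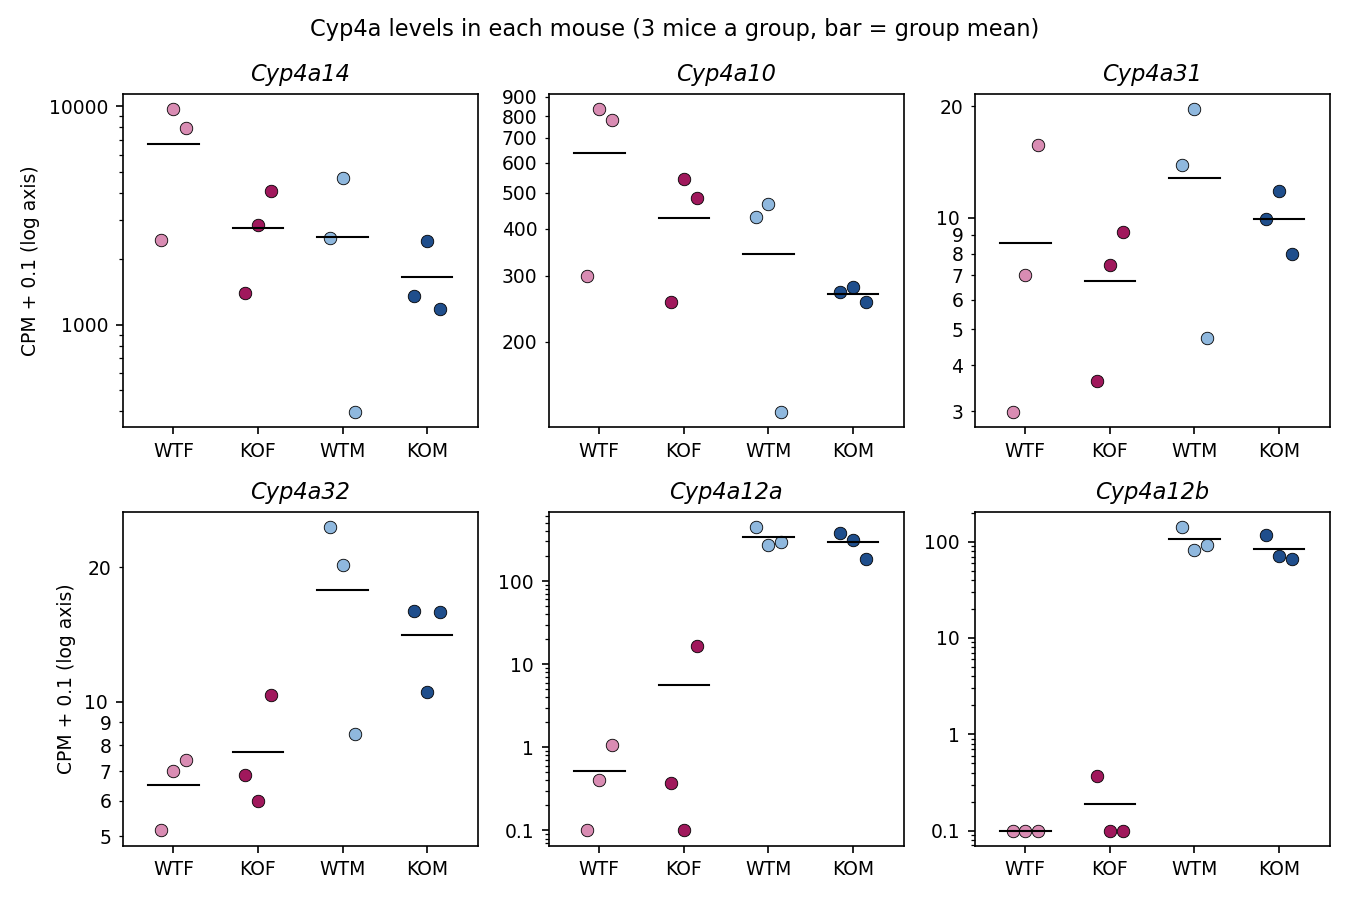
CPM of each Cyp4a gene in each mouse (points, 3 a group, with 0.1 added for the log axis) and group means (bars). Cyp4a14 ranges from 397 to 9752 CPM with overlapping groups, and Cyp4a12a and Cyp4a12b stand apart by sex.

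Cyp4a14 had 2445, 9752 and 7933 CPM in WTF 1089, 1090 and 1091. In KOF 1070, 1104 and 1105 it had 1388, 2852 and 4085 CPM. WTM 1055, 1086 and 1087 had 2490, 4703 and 397 CPM, and KOM 1075, 1076 and 1081 had 1353, 2425 and 1183 CPM. The highest values were those of 2 WTF mice and the lowest was that of a WTM mouse, and the groups overlapped by genotype within each sex and by sex within each genotype. By mean the order was WTF, 6710 ± 3804 CPM (SD, n = 3), then KOF, 2775 ± 1350, WTM, 2530 ± 2153, and KOM, 1653 ± 673. Neighbours in this order differed by less than the SD of the higher group, except WTF and KOF, whose means were slightly farther apart than the SD of WTF. The spread within a group was wide, with the highest mouse 11.8-fold above the lowest in WTM, 3.99-fold in WTF, 2.94-fold in KOF and 2.05-fold in KOM.

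Cyp4a10, the second PPARα target of the cluster, showed the same order of group means at a lower level, from 639 ± 296 CPM in WTF to 268 ± 12.8 in KOM (SD, n = 3). Its values were 299, 838 and 780 CPM in WTF 1089, 1090 and 1091, and 255, 544 and 482 CPM in KOF 1070, 1104 and 1105. In males they were 431, 465 and 130 CPM in WTM 1055, 1086 and 1087, and 271, 280 and 255 CPM in KOM 1075, 1076 and 1081. The mice that were low for Cyp4a14, WTF 1089, KOF 1070 and WTM 1087, were the lowest of their group here as well. For each 100 counts of Cyp4a14 there were 8.59 to 32.6 of Cyp4a10, the highest in WTM 1087.

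Cyp4a31 and Cyp4a32, the relatives of Cyp4a10, were at 2.89 to 24.5 CPM. Cyp4a31 had 2.89 to 15.6 CPM in WTF, 3.52 to 9.03 in KOF, 4.64 to 19.6 in WTM and 7.89 to 11.7 in KOM, and the compared groups overlapped. Cyp4a32 had 5.05, 6.90 and 7.33 CPM in WTF 1089, 1090 and 1091, and 6.76, 5.89 and 10.2 CPM in KOF 1070, 1104 and 1105. WTM 1055, 1086 and 1087 had 24.5, 20.1 and 8.36 CPM, and KOM 1075, 1076 and 1081 had 15.8, 10.4 and 15.8 CPM. For Cyp4a32 each male was above each female of the same genotype, and WTM 1087 lay below KOF 1105. These values rest on 14 to 64 counts a mouse for Cyp4a32 and 8 to 49 for Cyp4a31.

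Cyp4a12a was high in males and at or near 0 in 5 of the 6 females. WTM 1055, 1086 and 1087 had 444, 272 and 294 CPM, and KOM 1075, 1076 and 1081 had 380, 315 and 182 CPM. WTF 1089, 1090 and 1091 had 0, 1 and 3 counts, which is at most 0.956 CPM. KOF 1070 and 1104 had 1 and 0 counts, but KOF 1105 had 27 counts, or 16.3 CPM. Cyp4a12b had 141, 82.4 and 93.1 CPM in WTM and 117, 70.7 and 66.3 CPM in KOM, in the same order of mice, and in females 1 count in KOF 1070 and 0 in the other 5. No female reached the lowest male for either gene.

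The 27 counts of Cyp4a12a in KOF 1105 came without Cyp4a12b. In the 6 males, Cyp4a12b made up 18.4% to 26.7% of the counts of Cyp4a12a and Cyp4a12b together, from 705 to 1318 counts a mouse, with exact 95% binomial intervals that together run from 15.9% to 29.6%. In KOF 1105 it made up 0 of 27, with an exact 95% binomial interval up to 12.8%, and a count of 0 allows a share of up to 11.1% by the limit of 3 counts. These intervals and limits cover counting error only. Other male-biased liver genes were not uniformly raised in this mouse. Of 20 listed, 6 had their highest female value in KOF 1105, and 6 were at 0 in it. The share of all genes with their highest female value in this mouse was not counted, so the first count is only a description. Mup20, a urinary protein, had 140 CPM there, against at most 97.5 in the other 5 females and at least 2196 in males. Gstp1, a glutathione transferase, had 92.1 CPM against at most 63.4. Hsd3b5, a steroid dehydrogenase, was at 0 in KOF 1105 and at most 1.08 CPM in the other females. Elovl3, a fatty acid elongase, was at 3.61 CPM (6 counts), against 3.79 to 12.6 in the other females. Both genes were low in all females, so these values tell little. The Y-linked Ddx3y was at 0 CPM in KOF 1105.

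The make-up of the Cyp4a counts differed from mouse to mouse. Cyp4a14 made up 88.9% to 92.0% of them in WTF, 83.7% to 88.8% in KOF, 42.8% to 84.6% in WTM and 63.0% to 77.9% in KOM, with exact 95% binomial intervals of at most ± 1.79 points for counting error. Cyp4a12a and Cyp4a12b together made up 6.37% to 41.8% in WTM, 12.4% to 23.2% in KOM and at most 0.353% in females. The share of Cyp4a14 did not overlap between KOF and WTF, where the mean was lower in KOF (85.4% against 90.5%), but the highest KOF mouse (88.8%, interval 88.0% to 89.5%) and the lowest WTF mouse (88.9%, 88.1% to 89.6%) differed by less than counting error. An exact permutation test (two-sided) gave p = 0.1, the smallest that 3 mice against 3 allow, with an adjusted p of 0.2 over the 16 share comparisons. The share in males differed by 4.17 points between KOM and WTM, with an exact permutation p of 0.9, and turned to 7.35 points lower in KOM without WTM 1087.

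**Figure D2:**
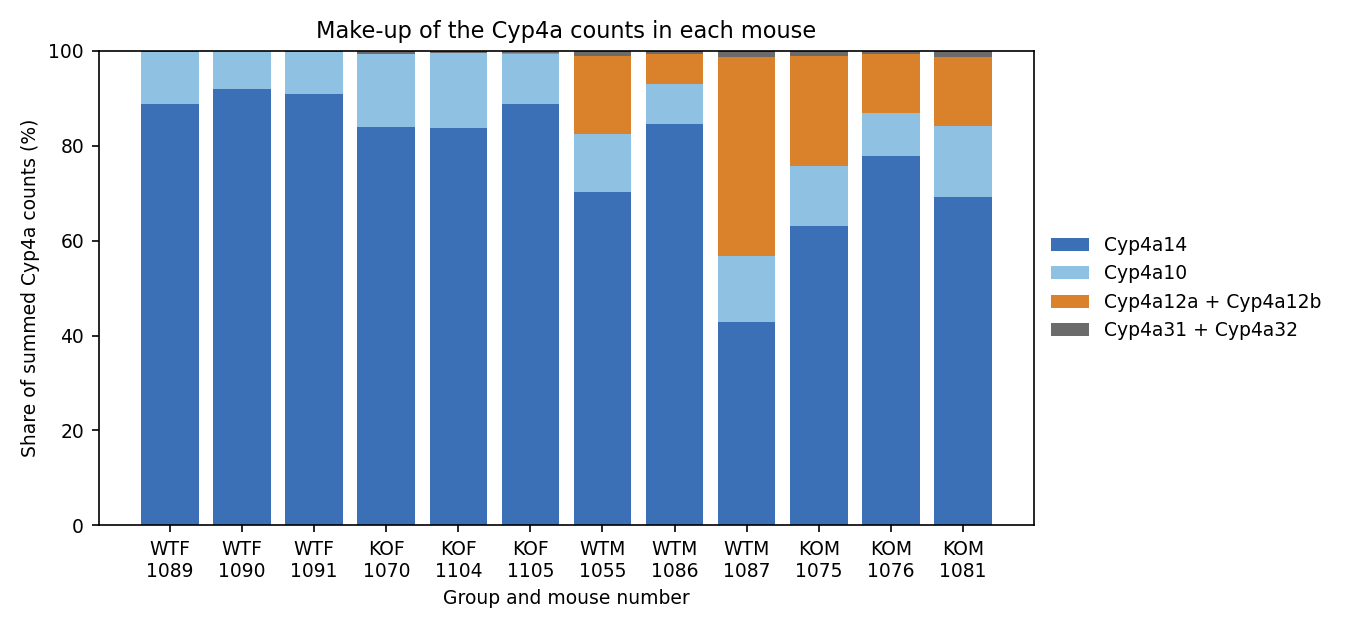
Share of each Cyp4a gene in the summed Cyp4a counts (stacked bars, in percent) for each mouse. Cyp4a14 fills 83.7% to 92.0% of the bars of the 6 females, and Cyp4a12a with Cyp4a12b takes 6.37% to 41.8% of the bars of the 6 males.

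Cyp4a14 and Cyp4a10 varied together from mouse to mouse. On log2(CPM + 1), Pearson's r over the 12 mice was 0.957 and Spearman's rho 0.965, each with p = 1e-05 by permutation, the smallest that 100000 resamples can give (adjusted p 9e-05 over 9 relations among Cyp4a genes). Without the 2 mice farthest from the median of Cyp4a10, r was 0.898. Within females r was 0.941 and within males 0.951, and with group means removed it was 0.942. Cyp4a31 followed Cyp4a10 within each sex, with r of 0.818 in females and 0.963 in males, but not over all 12 mice, where r was 0.465 (permutation p = 0.128, adjusted 0.242) and rho 0.315 (permutation p = 0.319, adjusted 0.574). At a like level of Cyp4a14, KOF 1070 had 3.52 CPM of Cyp4a31 (13 counts) and KOM 1075 had 9.80 (26 counts). The gap was smaller between KOF 1104, at 7.36 CPM, and KOM 1076, at 11.7 CPM. Cyp4a31 was not called between the sexes in either genotype. Cyp4a31 and Cyp4a32 had an r of 0.670 (permutation p = 0.0181, adjusted 0.0583) and a rho of 0.741 (permutation p = 0.00762, adjusted 0.0343) over the 12 mice. Without the 2 mice farthest from the median of Cyp4a31, r was 0.464. Within females r of this pair was 0.565, within males 0.734, and with group means removed 0.645. Permutations over the 12 mice did not keep sex or genotype apart, so their p-values also carry differences between groups. Among the 6 males, Cyp4a12a and Cyp4a12b had an r of 0.859 (exact permutation p = 0.0194, adjusted 0.0583) and a rho of 0.829 (exact permutation p = 0.0583, adjusted 0.175), and r was 0.657 without the 2 mice farthest from the median. Cyp4a12a and Cyp4a14 did not vary together in the 6 males beyond this test, with an r of 0.173 (exact permutation p = 0.722, adjusted 0.777).

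**Figure D3:**
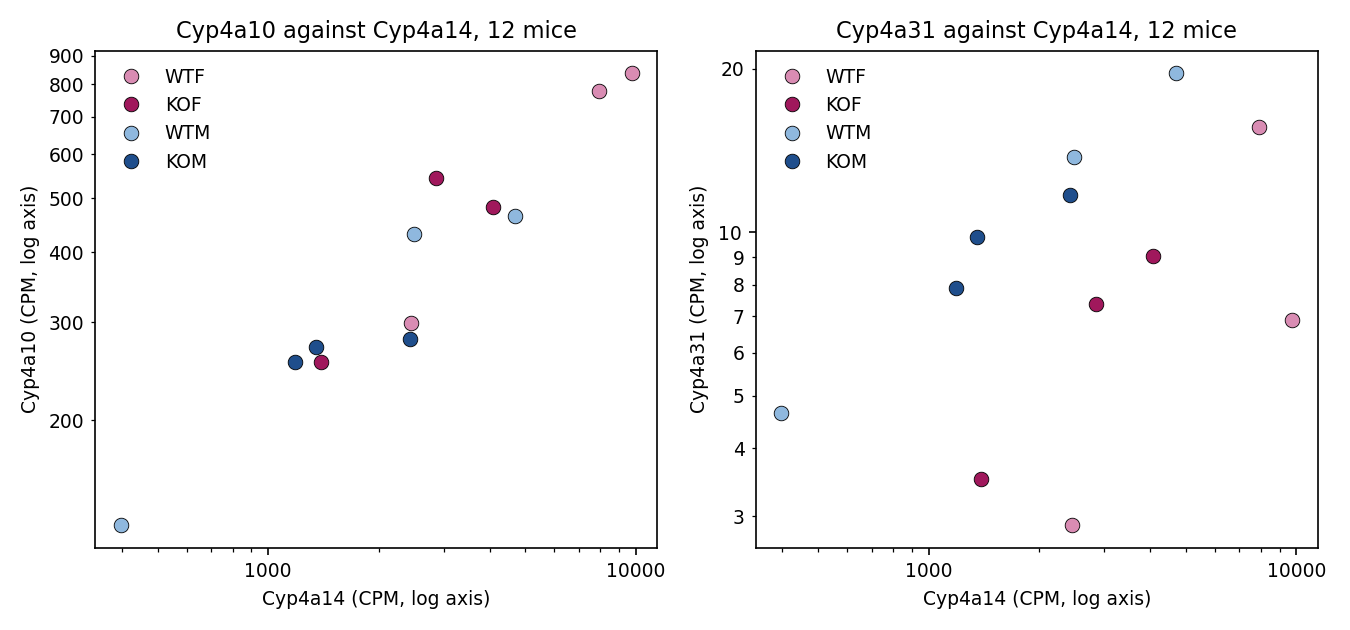
Cyp4a10 (left) and Cyp4a31 (right) against Cyp4a14 in each of the 12 mice, in CPM on log axes, coloured by group. Cyp4a10 follows Cyp4a14 across all mice (r = 0.957), and on the right 5 of the 6 females lie below 10 CPM of Cyp4a31, as do 3 of the 6 males at lower Cyp4a14.

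Among 6717 genes that averaged 10 CPM or more, the genes whose pattern was most like Cyp4a14 after group means were removed were Mtdh (r = 0.951), Cyp4a10, Acot1 (0.941), Ddhd2 (0.934) and Bace1 (0.932), over 12 mice. For Cyp4a10 they were Cyp4a14, Mtdh (0.940), Agpat6 (0.918), Retsat (0.916) and Acot1 (0.909). Acot1 is a cytosolic acyl-CoA thioesterase, Agpat6 makes lysophosphatidic acid, Retsat saturates retinol and Ddhd2 is a lipase. Over all 12 mice without that removal, the genes most like Cyp4a12a were Mup20 (0.975), Cyp2d9 (0.975), Nat8 (0.973), Gstp1 (0.973) and Serpine2 (0.962), and those most like Cyp4a12b were the Y-linked Eif2s3y (0.995) and Ddx3y (0.991), then Mup20 (0.987), Elovl3 (0.981) and Nat8 (0.978). These last values follow the gap between the sexes. For Cyp4a32 they were Dennd5a (0.936), Pias2 (0.880), Smurf2 (0.879), Ythdf2 (0.877) and Hmgxb3 (0.875).

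Known PPARα target genes followed Cyp4a14 and Cyp4a10 within groups more often than genes at large. Of 30 listed PPARα target genes outside the Cyp4a family and at that level, 16 had an r over 0.5 with Cyp4a14 once group means were removed, against 7.49% of 6716 genes, and their median r was 0.56 against -0.03. With Cyp4a10 it was 20 of 30 against 8.04%, and a median r of 0.62. The highest were the acyl-CoA thioesterases Acot1 (0.941), Acot4 (0.907) and Acot2 (0.839), the peroxisome gene Pex11a (0.893) and the lipid droplet coat gene Plin2 (0.799). The lowest were Cyp2j6 (-0.14), Fabp1 (-0.06), the fatty acid binding protein of liver, and Etfdh (0.068). With WTM 1087, WTM 1086, WTF 1089 or KOF 1070 left out, 15 to 19 of the 30 were over 0.5 with Cyp4a14, with a median r of 0.456 to 0.602. The genes named from this list were chosen after their values were seen, and the 12 mice behind every r are the same.

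**Figure D4:**
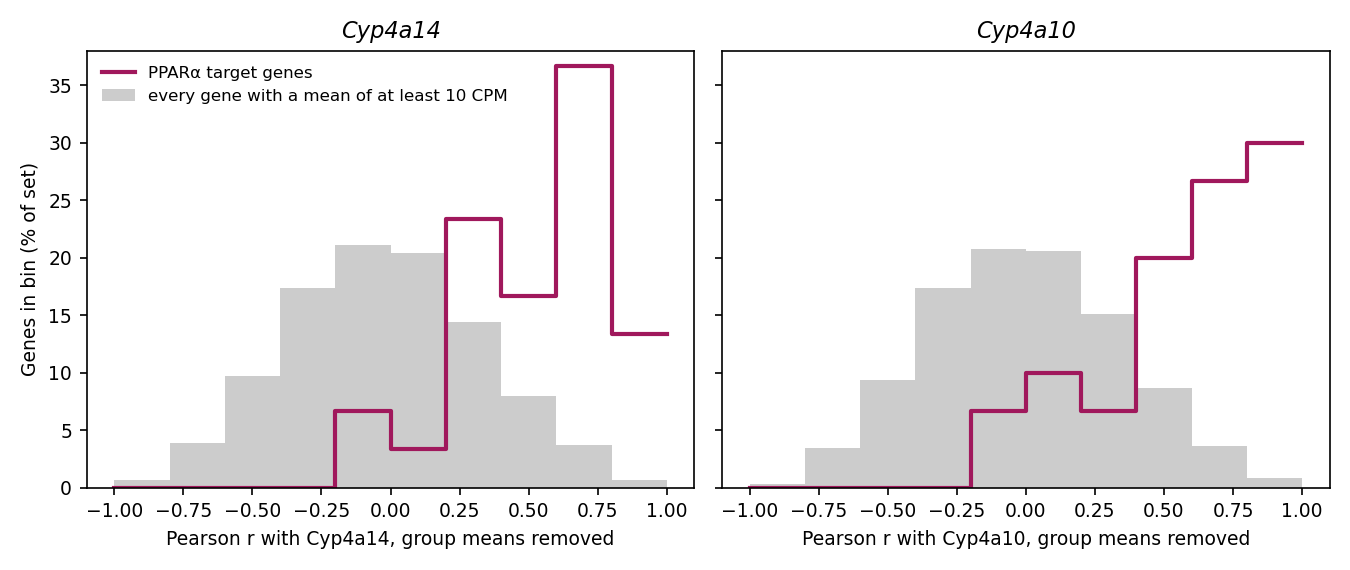
Distribution of Pearson's r with Cyp4a14 (left) and Cyp4a10 (right) over 12 mice with group means removed, as the percent of genes in bins of 0.2, for 6716 genes (grey) and 30 PPARα target genes (line). The line lies to the right of the grey bars in both panels, with a median r of 0.56 for Cyp4a14 and 0.62 for Cyp4a10.

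Siah2 KO females had lower mean levels of Cyp4a14 and Cyp4a10 than WTF, without a call. Of the 4 Cyp4a genes that passed the filter on low counts, 0 were called by edgeR's quasi-likelihood test at an adjusted p under 0.05, as were 0 of 9465 genes tested (0%). Cyp4a14 was 2.44-fold lower (log2 fold change -1.28 ± 0.52 SE, unadjusted p = 0.0343, adjusted p = 0.272 in edgeR), and 15.6% of all genes had an unadjusted p under 0.05. DESeq2 gave it an adjusted p of 0.107, while it called 305 of 8031 genes (3.8%). The log2 fold change of Cyp4a14 lay between -1.69 and -0.92 when each mouse was left out in turn, and no Cyp4a gene was called in any of these fits. Cyp4a10 had a log2 fold change of -0.59 ± 0.41, Cyp4a31 of -0.43 ± 0.59 and Cyp4a32 of 0.19 ± 0.37. With no filter beyond 1 count, edgeR called Cyp4a14 (adjusted p = 0.011) and also Cyp4a12a, whose log2 fold change of 3.33 (adjusted p = 0.00928) rests on the 27 counts of KOF 1105. That fit also called many genes outside the family, where the filtered fit called 0 of 9465. These calls are therefore not particular to Cyp4a genes. Some sums of markers of other cells did not overlap between these groups. For sinusoidal endothelium and stellate cells the list held 8 genes, 7 above 0 in all mice. It summed to 406 to 489 CPM in WTF and 299 to 347 in KOF. Of its 6 tested genes edgeR called 0, and 1 had an unadjusted p under 0.05. Alas2, the only red blood cell marker with counts, was at 20.1 to 25.2 CPM in WTF and 8.47 to 19.3 in KOF. It was not called by edgeR. The summed ranges of hepatocyte, Kupffer cell and bile duct markers overlapped. The part of other cells in the result was not tested. No Cyp4a gene separated Siah2 KO from wild type mice without overlap, while 23.3% of genes did in females and 8.87% in males. A lower level in bulk liver cannot be told apart from fewer cells that carry the transcript.

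In males none of the 6 Cyp4a genes had an unadjusted p under 0.05. edgeR called 0 of 8823 genes tested (0%), 4.05% passed 0.05 before adjustment, and 6 of 16219 (0.037%) were called by DESeq2. All 6 log2 fold changes of KOM against WTM were below 0, from -0.63 ± 0.55 for Cyp4a14 and -0.35 ± 0.33 for Cyp4a10 to -0.21 ± 0.25 for Cyp4a12a. Those of Cyp4a12b, Cyp4a31 and Cyp4a32 were -0.32 ± 0.24, -0.33 ± 0.44 and -0.25 ± 0.36. The value of Cyp4a14 moved with either of 2 wild type males. Without WTM 1087, the mouse at 397 CPM, its log2 fold change was -1.12 (unadjusted p = 0.0026, adjusted p = 0.871 in edgeR), and that of Cyp4a10 was -0.74 (unadjusted p = 0.000494, adjusted p = 0.494 in edgeR). Without WTM 1086, the mouse at 4703 CPM, that of Cyp4a14 turned to 0.22.

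**Figure D5:**
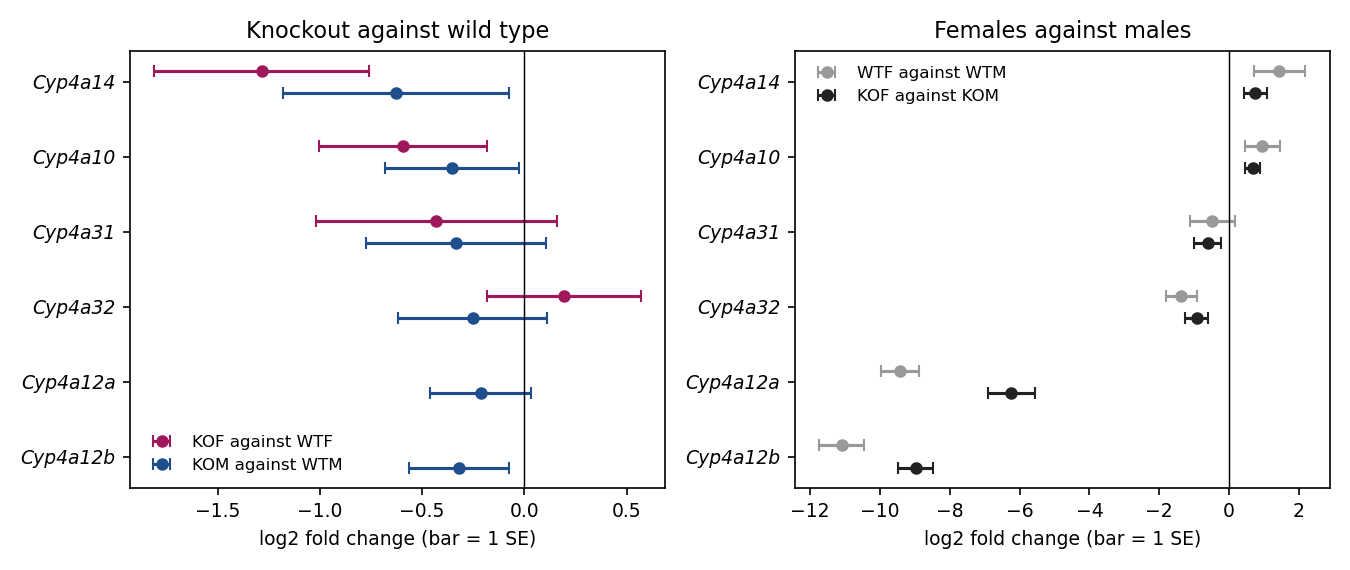
Log2 fold changes (points) with 1 standard error (bars) from edgeR for Siah2 KO against wild type (left) and females against males (right). Of the left panel no gene was called, and Cyp4a12a and Cyp4a12b, tested for the knockout in males alone, were called in both comparisons of the right panel.

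The female response less the male response was called for 0 of the 6 Cyp4a genes, and for 25 of 9806 genes tested (0.255%). DESeq2 called 4.03% of genes and no Cyp4a gene, and 14.1% had an unadjusted p under 0.05 in edgeR. For Cyp4a14 the difference was -0.66 ± 0.90 and for Cyp4a10 -0.24 ± 0.60 on the log2 scale, so a difference between the sexes in the effect of the knockout was not detectable. For Cyp4a12a it was 3.32 ± 1.53 (unadjusted p = 0.0458, adjusted p = 0.345 in edgeR), and without KOF 1105 it was -1.05. With no filter beyond 1 count it was called (3.29, adjusted p = 0.000142 in edgeR). The counts of KOF 1105 enter that fit too, and its share of all genes called is not given here. With both sexes combined, 0 of the 6 were called and 1 of 9020 genes (0.0111%), with 5.65% at an unadjusted p under 0.05 and 0.0056% called by DESeq2. Cyp4a14 then had a log2 fold change of -1.09 ± 0.54 (unadjusted p = 0.0598, adjusted p = 0.869 in edgeR), and with a term for sex -0.96 (unadjusted p = 0.0493, adjusted p = 0.673 in edgeR).

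Wild type females and males differed in Cyp4a12a and Cyp4a12b, the 2 of 6 that edgeR called, both lower in females, where 0.707% of 9335 genes were called lower (130 genes, or 1.39%, in either direction). The fitted log2 fold change of WTF against WTM was -9.42 ± 0.55 for Cyp4a12a (adjusted p = 2.32e-05 in edgeR). From pooled counts, 4 in females and 2073 in males, Cyp4a12a was 734-fold higher in males (95% interval 286 to 2695, counting error only). Cyp4a12b, with 0 counts in WTF, was at least 307-fold higher in WTM, against a floor of 3 counts over the group. Its fitted log2 fold change of -11.09 (adjusted p = 9.44e-05 in edgeR) depends on the prior count and is no bound. Cyp4a32 was lower in every WTF mouse than in every WTM mouse, as were 11.2% of genes, with a log2 fold change of -1.36 ± 0.44 (adjusted p = 0.177 in edgeR). Cyp4a14 and Cyp4a10 went the other way without a call, with log2 fold changes of 1.44 ± 0.74 (adjusted p = 0.40 in edgeR) and 0.94 ± 0.50 (adjusted p = 0.416 in edgeR), and Cyp4a31 had -0.48 ± 0.64.

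The same genes, Cyp4a12a and Cyp4a12b, were called between Siah2 KO females and males, in both lower in females, where 5.78% of 9102 genes were called lower (1044 genes, or 11.5%, in either direction). Cyp4a12a had a log2 fold change of -6.24 ± 0.67 (adjusted p = 2.59e-05 in edgeR), or -10.54 without KOF 1105. The latter rests on 1 count in KOF and depends on the prior count. From pooled counts, 28 in KOF with 27 of them in KOF 1105, it was 79.0-fold higher in KOM than in KOF (95% interval 54.5 to 119). Without KOF 1105 it was 1757-fold higher (315 to 69444). Against KOF 1105 alone, KOM were 16.9-fold higher (11.6 to 25.6). These intervals cover counting error only and leave out the spread between mice. Cyp4a12b had a fitted log2 fold change of -8.97 ± 0.51 (adjusted p = 2.34e-08 in edgeR), which depends on the prior count, and from pooled counts, 742 in KOM and 1 in KOF, it was 664-fold higher in KOM (95% interval 119 to 26281, counting error only). Cyp4a10 was 1.59-fold higher in KOF (log2 fold change 0.67 ± 0.22), with an adjusted p of 0.0625 in edgeR and 0.0441 in DESeq2, which called 8.2% of genes. Cyp4a32 was at -0.93 ± 0.32 (adjusted p = 0.0762 in edgeR) and again did not overlap, as did 16% of genes in that direction. Cyp4a14 was at 0.75 ± 0.32 (adjusted p = 0.153 in edgeR). Without KOF 1070, the lowest KOF mouse for both, edgeR called Cyp4a10 (log2 fold change 0.94) and Cyp4a14 (1.07) as well. Fits of this comparison with 1 mouse left out called 486 to 1056 of all genes. Leaving out the lowest KOF mouse raises the mean of KOF, so these 2 calls are only a description. Sex also went with some markers of other cells. The red blood cell list (5 genes, 4 at 0 in all mice) summed to 8.47 to 25.2 CPM in females and 83.9 to 154 in males. This sum is Alas2 alone, since the 4 at 0 are its haemoglobin genes. The list of Kupffer and other immune cells (8 genes, 6 above 0 in all mice) summed to 298 to 733 CPM in females and 70.9 to 535 in males. Of its 6 tested genes, edgeR called 2 higher in WTF than in WTM, beside 1.39% of all genes in either direction. Between KOF and KOM 4 of 6 were called higher in KOF, beside 11.5%. Markers of sinusoidal endothelium and stellate cells summed to 406 to 489 CPM in WTF and 265 to 340 in WTM, with 0 edgeR calls. Their summed ranges in KOF and KOM overlapped. The part of these other cells in the results on sex was not tested.

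Lists of genes around the Cyp4a enzymes were tested in the same fits. PPARα target genes outside the Cyp4a family (33 of 36 tested) held 0 edgeR calls in KOF against WTF and 6 with an unadjusted p under 0.05, beside 15.6% of all genes, and had a median log2 fold change of -0.21 beside -0.03 for all genes. DESeq2 called 1 of this list there, beside 3.8% of all genes. This was Plin2, which coats lipid droplets, at -1.41 ± 0.30 (adjusted p = 0.0962 in edgeR, 0.00223 in DESeq2). It went from 419 to 751 CPM in WTF to 159 to 276 in KOF, with no overlap. In males 0 of 33 were called and 1 had an unadjusted p under 0.05, beside 4.05% of all genes, namely Vnn1, a pantetheinase, at 0.89 ± 0.30. Between KOF and KOM 10 of 33 were called, 3 higher and 7 lower in females, beside 11.5% of all genes. Acot3 and Acot4, peroxisomal thioesterases, were higher in females by 4.36 ± 0.32 and 1.91 ± 0.25 on the log2 scale, and Acsl1, an acyl-CoA synthetase, and Acaa1b, a peroxisomal thiolase, were lower by -1.38 ± 0.19 and -1.08 ± 0.20. Cpt1a, the gate of mitochondrial fatty acid entry, was higher in females at 1.02 ± 0.16.

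Genes of PPARα and its partners (15 listed) held no edgeR call for the knockout in either sex. DESeq2 called 1 of them in females, beside 3.8% of all genes. This was Nr1i2, the xenobiotic receptor PXR, lower in KOF (edgeR log2 fold change -1.05 ± 0.27, DESeq2 adjusted p = 0.0314). Between KOF and KOM, 3 of 13 were called, beside 11.5% of all genes, the coactivator Ppargc1a (0.85 ± 0.20) and Rxrg (1.42 ± 0.42) higher and Hnf4a (-0.63 ± 0.17) lower in females. The later steps of omega oxidation, that is the alcohol and aldehyde dehydrogenases and the peroxisomal enzymes that shorten the resulting dicarboxylic acids (19 of 19 tested), held 0 edgeR calls for the knockout in either sex. DESeq2 called 2 of the 19 in females, beside 3.8% of all genes. Crot, a peroxisomal carnitine transferase, was lower in KOF (edgeR log2 fold change -1.53 ± 0.29, DESeq2 adjusted p = 0.00027). Adh5, an alcohol dehydrogenase, was higher (DESeq2 adjusted p = 0.0152). By sex, Abcd2, a peroxisomal fatty acid transporter, was called in both genotypes, higher in females by 2.90 ± 0.31 in wild type and 3.06 ± 0.23 in Siah2 KO mice. Abcd2 is also on the list of female-biased liver genes, so its values by sex are a description. In Siah2 KO mice 10 of the 19 were called, beside 11.5% of all genes, 4 higher and 6 lower in females, with Scp2 (-1.48 ± 0.15) and Adh4 (-1.03 ± 0.18) among the lower.

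The other Cyp4 genes held 5 tested members of 14 listed, with 0 calls for the knockout. Between KOF and KOM Cyp4v3 was lower (-1.02 ± 0.16) and Cyp4b1, which lies beside the Cyp4a cluster, was higher (1.13 ± 0.18) in females, which made 2 of 5 called beside 11.5% of all genes. Of the neighbours of the cluster on chromosome 4, Cyp4b1 was the 1 called of 6 tested in that comparison (11.5% of all genes), and 0 were called in the other 5 comparisons. Of the electron donors of P450 enzymes, 3 were tested, and Por, the P450 reductase, was higher (0.69 ± 0.16) and Cyb5r3 lower (-0.68 ± 0.16) in KOF than in KOM, again beside 11.5% of all genes called. Of the other eicosanoid oxygenases and hydrolases, 6 of 14 were called there beside the same 11.5%, with the Cyp2c genes Cyp2c40 (7.49 ± 0.47) and Cyp2c37 (1.39 ± 0.15) higher and Ephx2, the soluble epoxide hydrolase, lower (-0.83 ± 0.16) in females. Cyp2c40 was also the 1 called of this list between WTF and WTM (7.83 ± 0.58), where 1.39% of all genes were called.

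Mup20 and Elovl3 were listed for their male bias, so their values by sex are a description. The log2 fold change of females against males for Mup20 was -5.62 ± 0.31 in wild type and -4.97 ± 0.33 in Siah2 KO mice, and that of Elovl3 -4.90 ± 0.45 and -6.10 ± 0.26. Of genes of growth hormone and sex steroid signaling, 1 of 16 was called between WTF and WTM (1.39% of all genes), the prolactin receptor Prlr, higher in females (1.69 ± 0.29), and 4 of 16 between KOF and KOM (11.5% of all genes). For the knockout within either sex, 0 genes of this list and of the lists of male-biased and female-biased liver genes were called by edgeR. DESeq2 called 3 of them lower in KOF than in WTF, beside 3.8% of all genes called in either direction. They were the male-biased Serpina1e, a serine protease inhibitor (edgeR log2 fold change -2.04 ± 0.50, DESeq2 adjusted p = 0.00251), C8b, a complement component (-1.39 ± 0.32, DESeq2 adjusted p = 0.00607), and the female-biased A1bg (-3.20 ± 0.69, DESeq2 adjusted p = 0.0185). In males DESeq2 called Mup20 lower in KOM than in WTM (edgeR log2 fold change -0.82 ± 0.17, DESeq2 adjusted p = 0.0144), beside 0.037% of all genes.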

How the data were processed

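Liver RNA of 12 mice was profiled with the Lexogen QuantSeq 3′ kit. The authors trimmed, mapped and counted reads on BaseSpace, and the deposited values are whole read counts per gene symbol, 1 table per sex, not normalized. The submitters' processing notes name STAR, DESeq and mm10. For versions, annotation and strand setting: not given in the sources used here. The labels speak of RNA pooled from 3 mice, while the methods describe single livers, and the latter was used. If the pooling holds, p-values measure a different spread. Totals ran from 1293688 to 4056144 counts (median 2670267.5), of which Rn45s, a ribosomal precursor, took 5.68% to 17.9%. Low genes are limited by depth. Rows whose symbols had turned into dates (27 rows, 0.228% to 0.272% of counts) stayed in totals. WTF 1091 had the lowest TMM factor (0.901, against 0.967 to 1.06). Reads carry no molecular identifiers.

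Groups of 3 mice were compared with edgeR 4.0.16 (filterByExpr, TMM scaling, quasi-likelihood test) under R 4.3.3. Tests were two-sided, p-values were adjusted by Benjamini-Hochberg over all genes tested, and 0.05 was the threshold. Correlations used log2(CPM + 1), and the likeness of the PPARα list was added after the data were seen. Adjusted p-values that DESeq2 left empty stayed empty. DESeq2 1.42.0 and limma 3.58.1 (voom) were alternatives. Scripts were tested on simulated data. Python 3.11.15, numpy 2.4.6, scipy 1.17.1, pandas 2.3.3 and matplotlib 3.10.9 did the rest. Median log2 fold changes of all genes stayed within 0.054 of 0. Gene positions came from RefSeq (GRCm38.p6), transcripts from GENCODE M1.

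The members and gene lists were chosen with earlier results of these data known. Named genes were the Cyp4a genes, Siah2, for each list and comparison the called genes (the 5 of smallest p where more) and the 2 largest rises and falls at a mean of at least 10 CPM, and for each Cyp4a gene of that level the 5 genes of highest r over all mice and after removing group means. Some of those are not named in the text. Bile duct markers summed to 6.05 to 25.2 CPM and fat markers to at most 26.4.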

Additional observations from a re-analysis of the deposited data

How the results depend on the processing

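No paired analysis was possible because the groups share no mouse numbers. Cyp4a12a and Cyp4a12b stayed lower in females in both genotypes under every alternative that gave them a value of their own. Counts of called Cyp4a genes moved in these settings. With no filter beyond 1 count edgeR called 2 for the knockout in females, 1 for how the sexes differ in it, and 4 when females were set against males of either genotype, against 0, 0, 2 and 2. The shares of all genes called in these unfiltered fits are not given here, so the counts are only a description. With near-identical genes summed, 1 summed gene (Cyp4a12a with Cyp4a12b) was called between the sexes in either genotype, since 2 rows became 1. With each mouse left out, 2 to 4 were called between KOF and KOM, beside 486 to 1056 of all genes. DESeq2 and limma-voom each called 3 there, beside 8.2% of all genes in DESeq2.

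Signs turned for uncalled genes. For the knockout in females Cyp4a31 went to 0.14 with thinned libraries and 0.19 with limma-voom. In males Cyp4a31 and Cyp4a32 went to 0.0010 and 0.032 with limma-voom. The difference between the sexes for Cyp4a31 went to 0.68 thinned and 0.22 with limma-voom. With both sexes combined Cyp4a32 went to 0.064 thinned and Cyp4a12a to 0.35 with a term for sex. The cause was not tested.

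With each mouse left out, log2 fold changes ranged, for the knockout in females, from -0.83 to 0.34 (Cyp4a31) and -0.046 to 0.35 (Cyp4a32). In males they ranged from -0.43 to 0.052 (Cyp4a12a), -1.12 to 0.22 (Cyp4a14), -0.81 to 0.25 (Cyp4a31) and -0.64 to 0.043 (Cyp4a32). For the difference between the sexes they ranged from -1.05 to 4.43 (Cyp4a12a), -0.58 to 0.12 (Cyp4a10) and -0.69 to 0.67 (Cyp4a31). Between WTF and WTM Cyp4a31 ranged from -1.26 to 0.054. With both sexes combined they ranged from -0.70 to 0.39 (Cyp4a12a), -0.89 to 0.29 (Cyp4a12b) and -0.24 to 0.22 (Cyp4a32). Shares in KOM minus WTM ranged from -7.35 to 13.5 points (Cyp4a14), -0.904 to 2.25 (Cyp4a10), -12.5 to 5.24 (Cyp4a12a with Cyp4a12b) and -0.143 to 0.225 (Cyp4a31 with Cyp4a32). Of the alternative log2 fold changes, 501 kept direction and side of the threshold, 34 turned in sign and 11 became called.

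Counts over all genes moved more. For the knockout in females edgeR called 0, with no filter 484, with all 12 mice in 1 fit 427 and without WTF 1091 936, and limma-voom called 1058. Between KOF and KOM 1044 became 352 with all 12 mice in 1 fit. Ranking by Spearman's rho kept between 0 and 4 of the 5 genes most like each Cyp4a gene.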

Other observations

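Summed with their near-identical relatives, the Cyp4a genes gave the same calls. Cyp4a12a and Cyp4a12b as 1 row had a log2 fold change of -9.82 for WTF against WTM (adjusted p = 1.82e-05 in edgeR) and -6.56 for KOF against KOM (adjusted p = 1.07e-05 in edgeR). Cyp4a10, Cyp4a31 and Cyp4a32 as 1 row had -0.58 for the knockout in females (adjusted p = 0.545 in edgeR), and -0.35 in males, without a call.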
